A study of Mus musculus with 12 samples.

Results

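The 10 genes described here belong to the MHC class II pathway of antigen presentation and to the dendritic cells that use it. They were picked by symbol from the 54232 genes of a liver count table, and all 10 were among the 17509 genes with enough reads to be tested. H2-Aa, H2-Ab1 and H2-Eb1 encode class II chains, H2-DMa, H2-DMb1 and Cd74 encode proteins that guide peptide loading, Ciita encodes the transcriptional coactivator of the pathway, and Itgax, Flt3 and Xcr1 are dendritic cell genes. Bulk mRNA sequencing was performed on whole livers of 12 male C57Bl/6J mice aged 10 weeks, 6 per genotype, fasted for 4 h. Both groups were homozygous for a floxed allele of Marchf6, which encodes an E3 ubiquitin ligase of the endoplasmic reticulum. The knockout mice (LKO) also carried Cre under the albumin promoter, and their Cre-negative littermates served as controls (WT). The albumin promoter acts in hepatocytes, so the dendritic cells, B cells and Kupffer cells of an LKO liver retain the gene. In whole liver, fewer cells of a type and less RNA per cell cannot be told apart.

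MHC class II molecules are dimers of an alpha and a beta chain that carry peptides from endocytosed proteins to the cell surface, where CD4+ T cells read them. The invariant chain CD74 blocks the groove and escorts the dimer to the endosome, where cathepsins cut the chain down and H2-M, the dimer of H2-DMa and H2-DMb, releases the last fragment. Transcription depends on CIITA, which docks on factors bound to the X and Y boxes of class II promoters. Dendritic cells, B cells and macrophages express the pathway, and interferon gamma can induce it in other cells.

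The promoter stretches below show the X and Y boxes of the members that had a promoter window with both, and H2-DMb2 for contrast. They are RefSeq sequences of the GRCm38.p6 build, each read 5′ to 3′ on the strand of its gene, with the core of the X box (GNAAC) and the Y box (GATTGG) in capitals.
H2-Aa, chr17:34287861-34287910, minus strand: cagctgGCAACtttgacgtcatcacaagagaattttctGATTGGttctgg
H2-Eb1, chr17:34305770-34305818, plus strand: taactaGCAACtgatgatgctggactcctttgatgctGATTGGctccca
H2-DMb1, chr17:34153091-34153140, plus strand: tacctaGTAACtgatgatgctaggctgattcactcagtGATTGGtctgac
H2-DMb2, chr17:34145114-34145169, plus strand: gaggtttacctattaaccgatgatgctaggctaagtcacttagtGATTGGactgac

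The X core starts 81 bases before the RefSeq start in H2-Aa, 91 before it in H2-Eb1 and 94 before it in H2-DMb1. The Y box follows 31 or 32 bases downstream of the X core. In GENCODE, the source of the gene coordinates given below, H2-DMb1 begins further upstream, at 34153072. Its stretch therefore lies inside the gene by those coordinates. H2-DMb2, the closest copy of H2-DMb1, is shown for contrast: its stretch holds the Y box without an upstream GNAAC at that distance. The motifs were searched on both strands of windows from 250 bases before to 50 after the start, and the 2 motifs do not overlap. GNAAC alone was in 84.8% of 32851 windows and GATTGG in 16.1%, whereas the pair in 1 orientation with starts 25 to 45 bases apart was in 1.17%. The pair was in 6 of 9 windows of class II genes and in 0 of the 3 windows of Itgax, Flt3 and Xcr1. The 2 windows of H2-DMa were without it. These matches describe letters in a window and do not show binding, and the letters of the motifs were chosen after the sequences were seen. Whether this layout relates to the levels of the genes was not tested. H2-Ab1, Cd74 and Ciita had no entry in the RefSeq promoter table.

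The libraries held 14860414 to 22111926 counts per liver. Levels are given as normalized CPM, the counts of a gene relative to the library total after scaling between libraries. The livers carried the RNA of hepatocytes, with Alb at 76078 ± 7053 normalized CPM in WT (SD, n = 6). Counts of Marchf6, listed as March6, were 241 ± 8.36 normalized CPM in WT and 226 ± 16.5 in LKO livers (SD, n = 6 each), with overlapping groups and an adjusted p of 0.585. This count covers the whole gene, so it does not check the deletion of 1 exon. The WT libraries are numbered before the LKO libraries, so genotype and library order cannot be told apart.

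No member differed between genotypes at an adjusted p under 0.05, the threshold for a call. The edgeR quasi-likelihood test called 75 of the 17509 genes, or 0.428%, and 0 of the 10 members. At an unadjusted p under 0.05 it marked 2047 genes, or 11.7%, and again 0 of the 10. The 2 groups did not overlap in 228 genes, or 1.30%, and overlapped in every member. Limma voom, which called 0.485% of the same genes, and DESeq2, which called 2.17% of 16141 genes with an adjusted p, also called 0 members. Of the 10 log2 fold changes of LKO against WT, 8 were above 0 and 2 below it, with a median of 0.18 beside 0.00 over all genes tested. The lowest adjusted p among the members was 0.509, for Itgax.

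**Figure D1:**
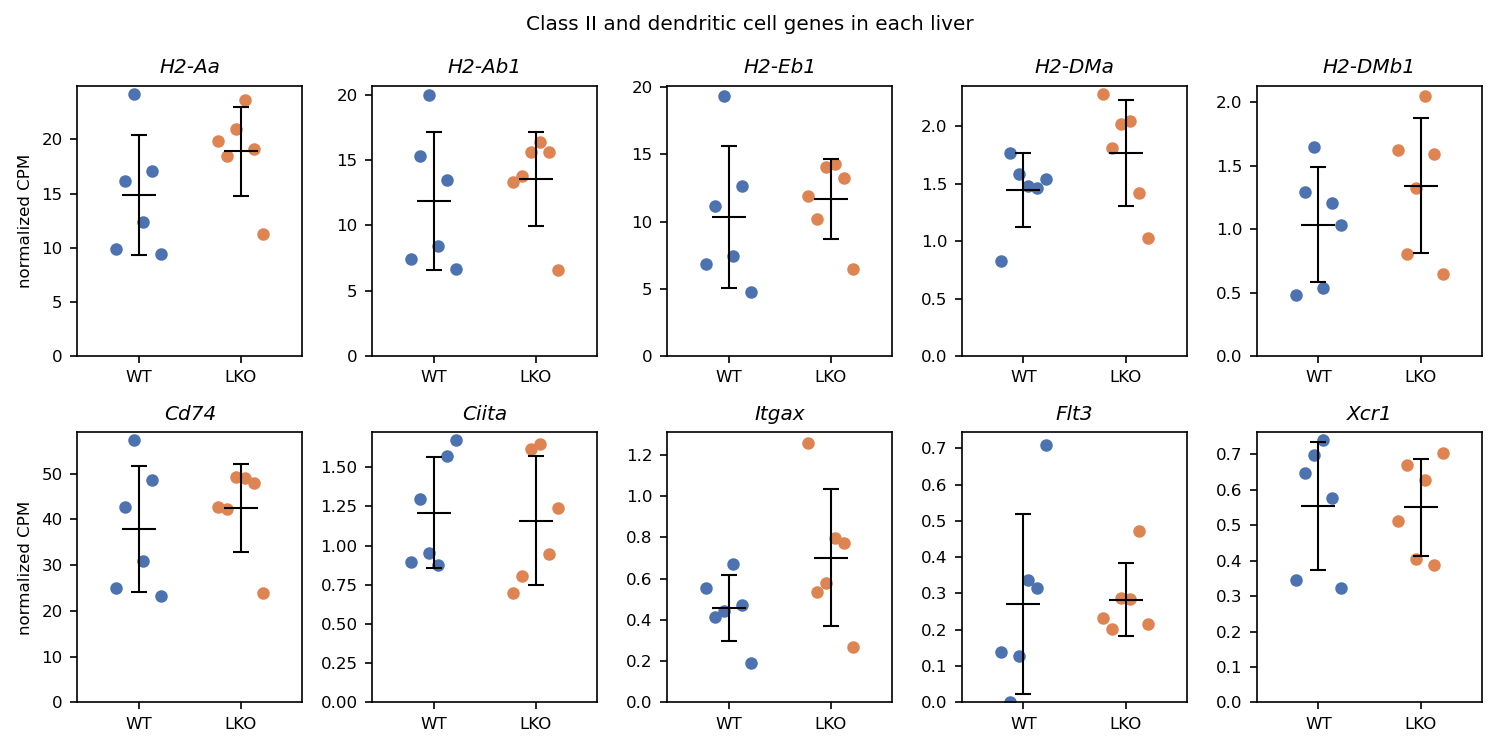
Normalized CPM of the 10 members (y axis, linear from 0, a scale for each gene) in each of 6 WT and 6 LKO livers (points), with the mean and SD of each group as bars. The groups overlap in every panel, and LKO replicate 6 lies apart below the other LKO livers in H2-Aa, H2-Ab1, H2-Eb1 and Cd74.

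The class II chains were the first group. H2-Aa (ENSMUSG00000036594, GRCm38 chromosome 17, 34282744 to 34287823, minus strand) encodes the alpha chain of I-A. Its level ran from 9.46 to 24.2 normalized CPM in WT livers, with a median of 14.3, and from 11.3 to 23.6 in LKO livers, with a median of 19.5. The LKO range lay inside the WT range, although 5 of 6 LKO livers were above the WT mean. The log2 fold change was 0.34 ± 0.22 (SE), with a 95% interval from -0.12 to 0.80 and an adjusted p of 0.572.

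H2-Ab1 (ENSMUSG00000073421, chromosome 17, 34257689 to 34269419, plus strand) encodes the beta chain that pairs with H2-Aa. It ran from 6.63 to 20.0 normalized CPM in WT livers, with a median of 11.0, and from 6.60 to 16.3 in LKO livers, with a median of 14.7. Both groups started from the same low level, and the highest liver was WT. LKO exceeded WT by 0.19 ± 0.27 on the log2 scale (SE), within an interval from -0.38 to 0.76 (adjusted p = 0.842). Leaving out 1 liver moved it between 0.07 (without WT replicate 6) and 0.40 (without WT replicate 3).

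H2-Eb1 (ENSMUSG00000060586, chromosome 17, 34305867 to 34316674, plus strand) encodes the beta chain of I-E. C57BL/6 mice make no I-E alpha chain, and H2-Ea-ps, the remnant of its gene, had at most 1 read in a liver. H2-Eb1 was nonetheless transcribed, at 4.76 to 19.4 normalized CPM in WT livers (median 9.29) and 6.49 to 14.3 in LKO livers (median 12.6). These WT livers differed 4.07-fold from lowest to highest, more than the genotypes did. Its log2 fold change was 0.17 ± 0.28 (SE), with an interval from -0.43 to 0.77 and an adjusted p of 0.867, and it was 0.02 without WT replicate 6 and 0.44 without WT replicate 3.

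The peptide loading genes followed. Cd74 (ENSMUSG00000024610, chromosome 18, 60803848 to 60812652, plus strand), the invariant chain, was the most abundant member, with 361 to 1113 reads per liver. It ran from 23.2 to 57.3 normalized CPM in WT livers, with a median of 36.8, and from 23.9 to 49.2 in LKO livers, with a median of 45.3. The LKO range again lay inside the WT range, with 5 LKO livers between 42.2 and 49.2 and LKO replicate 6 near the WT minimum. Between genotypes the log2 fold change was 0.16 ± 0.22 (SE), with an interval from -0.31 to 0.63 and an adjusted p of 0.834.

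H2-DMa (ENSMUSG00000037649, chromosome 17, 34119541 to 34139101, plus strand) encodes the alpha chain of the peptide exchange factor H2-M. It ran from 0.829 to 1.77 normalized CPM in WT livers (median 1.51) and from 1.03 to 2.28 in LKO livers (median 1.92). Here 4 of 6 LKO livers exceeded every WT liver, while LKO replicates 5 and 6 lay within the WT range. Its log2 fold change was 0.28 ± 0.22 (SE), with an interval from -0.18 to 0.75 and an adjusted p of 0.663. Exons of H2-DMa and of Brd2 on the opposite strand share 360 bases, and Brd2 had 21533 reads over all livers. The strand setting of the counting is not given in the sources used here, so reads of the pair may be mixed.

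H2-DMb1 (ENSMUSG00000079547, chromosome 17, 34153072 to 34160230, plus strand) encodes the beta chain of H2-M. It ran from 0.484 to 1.65 normalized CPM in WT livers (median 1.12) and from 0.649 to 2.05 in LKO livers (median 1.46), with 1 LKO liver above every WT liver. Its log2 fold change was 0.37 ± 0.33 (SE), with an interval from -0.32 to 1.07 and an adjusted p of 0.706. Of its 50-base stretches, 22.7% also occur in H2-DMb2, so the split between both genes is uncertain. Summed over both, the log2 fold change was 0.51, with an adjusted p of 0.410.

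Ciita (ENSMUSG00000022504, chromosome 16, 10480059 to 10528418, plus strand), the coactivator on which class II transcription depends, had 12 to 30 reads per liver. It ran from 0.875 to 1.67 normalized CPM in WT livers (median 1.12) and from 0.698 to 1.65 in LKO livers (median 1.09). High and low livers occurred in both groups: WT replicates 5 and 6 and LKO replicates 3 and 4 were the highest. Between genotypes the log2 fold change was -0.08 ± 0.26 (SE), with an interval from -0.64 to 0.48 (adjusted p = 0.946). Ciita overlaps Dexi on the opposite strand by 329 exonic bases, and Dexi had 3742 reads over all livers. With the strand setting not given, reads of this pair may be mixed too, which limits the values of Ciita.

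The dendritic cell members had the fewest reads. Itgax (ENSMUSG00000030789, chromosome 7, 128129547 to 128150657, plus strand) encodes CD11c, the integrin alpha chain by which dendritic cells are commonly sorted, though some macrophages carry it too. It ran from 0.193 to 0.673 normalized CPM in WT livers (median 0.458) and from 0.270 to 1.26 in LKO livers (median 0.676), on 3 to 27 reads per liver. LKO replicates 1, 4 and 5 exceeded every WT liver, and the lowest LKO liver was again replicate 6. The log2 fold change of 0.64 ± 0.35 (SE) was the largest of the 10, with an interval from -0.11 to 1.38. It dropped to 0.38, with an adjusted p of 0.700, without LKO replicate 1. Itgax shares 8.02% of its 50-base stretches with Itgad.

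Flt3 (ENSMUSG00000042817, chromosome 5, 147330741 to 147400489, minus strand) encodes the receptor through which FLT3 ligand sustains dendritic cells and their precursors. With 0 to 11 reads per liver it ran from 0.00 to 0.708 normalized CPM in WT livers (median 0.226) and from 0.201 to 0.473 in LKO livers (median 0.259). The WT livers held both the lowest and the highest value. Its log2 fold change was 0.10 ± 0.53 (SE), with an interval from -1.04 to 1.23 (adjusted p = 0.969), and it changed sign when single livers were left out.

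Xcr1 (ENSMUSG00000060509, chromosome 9, 123852315 to 123862029, minus strand) encodes the chemokine receptor that marks type 1 conventional dendritic cells (cDC1), the subset that cross-presents antigen to CD8+ T cells. It ran from 0.322 to 0.740 normalized CPM in WT livers (median 0.612) and from 0.387 to 0.703 in LKO livers (median 0.569), on 5 to 13 reads per liver. The groups covered nearly the same range. Between genotypes the log2 fold change was -0.03 ± 0.27 (SE), with an interval from -0.61 to 0.55 (adjusted p = 0.980).

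**Figure D2:**
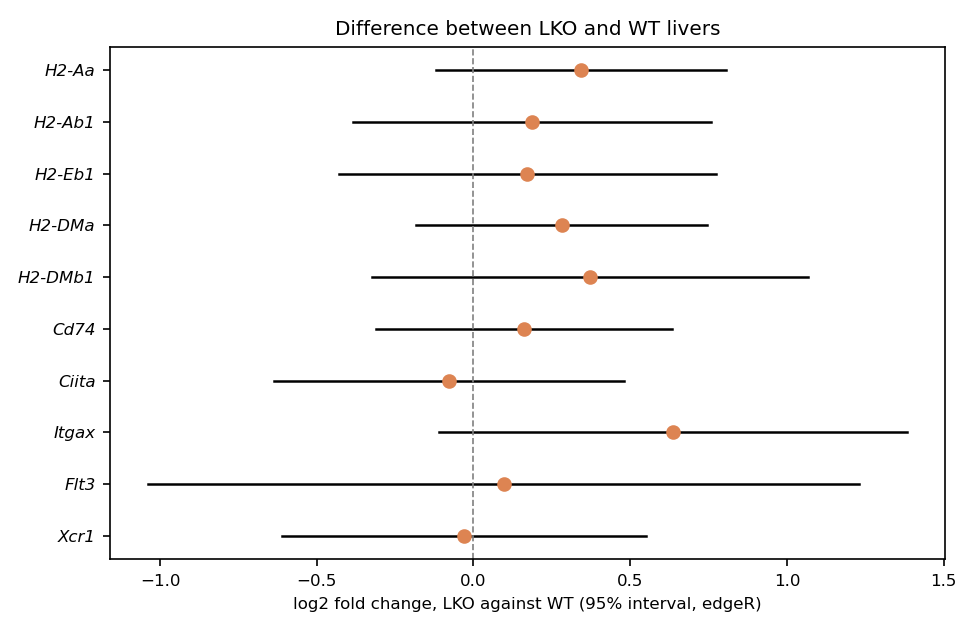
Log2 fold change of each member, LKO against WT (x axis), from edgeR, with its 95% interval as a line and 0 dashed. All 10 intervals include 0, and the widest, of Flt3, runs from -1.04 to 1.23.

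Compared per kilobase of exon, the members spanned a wide range. The length takes in every annotated exon of a gene, whichever transcripts these livers expressed, so the order depends on the annotation. Before this division the chains stood in the opposite order, with WT means of 14.9 (H2-Aa), 11.9 (H2-Ab1) and 10.4 (H2-Eb1) normalized CPM. H2-DMa, at 1.45, was then also above H2-DMb1, at 1.03. Cd74 was at 22.6 ± 8.18 normalized CPM per kilobase in WT livers (SD, n = 6) and was above H2-Eb1 in 12 of 12 livers. H2-Eb1 at 5.33 ± 2.72, H2-Ab1 at 4.62 ± 2.06 and H2-Aa at 3.91 ± 1.46 normalized CPM per kilobase in WT overlapped in their ranges between livers. Within livers the order was more regular, with H2-Eb1 above H2-Ab1 in 9 of 12 and H2-Ab1 above H2-Aa in 10 of 12. A gap followed: H2-Aa was above H2-DMb1 (0.615 ± 0.269 normalized CPM per kilobase in WT) in 12 of 12 livers. H2-DMb1 was above H2-DMa (0.419 ± 0.0930) in 10 livers with overlapping ranges, and H2-DMa was above Ciita (0.127 ± 0.0372) in 12. Ciita and Xcr1 (0.125 ± 0.0405 normalized CPM per kilobase in WT) exchanged places, with Ciita higher in 6 of 12 livers. Xcr1 and Itgax (0.0953 ± 0.0333) did not separate either, and Flt3 was lowest of the 10 on average, at 0.0438 ± 0.0402 normalized CPM per kilobase in WT.

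The spread between livers of 1 genotype was larger than the difference between genotypes for H2-Aa, H2-Ab1, H2-Eb1 and Cd74, and far above counting error. In WT livers the coefficient of variation was 37.3% for H2-Aa, 44.6% for H2-Ab1, 51.0% for H2-Eb1 and 36.2% for Cd74, where read counting alone would give 4.01% to 7.67%. In LKO livers it was 21.9% to 26.6% for the same genes, against 3.53% to 6.72% from counting. For Xcr1 the coefficient of variation in WT livers was 32.5% and counting alone gives 33.3%, so no variation beyond counting error was detectable at this depth. In LKO livers the values of Xcr1 were 24.8% and 31.4%. For Itgax they were 34.9% and 36.9% in WT livers but 47.3% and 27.1% in LKO livers. For Flt3 they were 91.8% and 48.0% in WT livers and 35.3% and 42.6% in LKO livers.

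These 4 abundant genes varied together. In the WT livers, taken by replicate number, their summed level was 49.2, 85.5, 120.8, 59.03, 91.8 and 44.1 normalized CPM. In the LKO livers it was 87.9, 84.7, 99.8, 103.4, 95.9 and 48.3 normalized CPM. WT replicates 1, 4 and 6 and LKO replicate 6 were the low livers, and WT replicate 3 was the highest. The group means were 75.1 ± 29.6 in WT and 86.7 ± 20.1 in LKO (SD, n = 6 each), a ratio of 1.15. After the group means were subtracted, Pearson's r of log2 CPM over the 12 livers was 0.961 to 0.983 for the 6 pairs of these genes. The livers share libraries and depth across genes, and these r are descriptions without a test.

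The ratios between the chains varied less than their levels. The H2-Aa to H2-Ab1 ratio of normalized CPM was 1.29 ± 0.152 in WT and 1.42 ± 0.169 in LKO (SD, n = 6 each). For H2-Eb1 to H2-Ab1 it was 0.859 ± 0.108 in WT and 0.872 ± 0.0800 in LKO. Cd74 to the sum of the 3 chains was 1.05 ± 0.0848 in WT and 0.966 ± 0.0351 in LKO, and it differed 1.25-fold from the lowest to the highest WT liver while the summed level differed 2.74-fold.

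The other members followed this pattern to different degrees. With the mean log2 CPM of the 4 abundant genes, H2-DMb1 had r = 0.76 and H2-DMa r = 0.60 over the 12 livers, Itgax 0.49, Xcr1 0.30, Ciita -0.01 and Flt3 -0.32. The 3 pairs of dendritic cell members had r of -0.41 to 0.09 among themselves. Over all 17509 genes the median r with the class II mean was 0.01, and 95% of genes lay within 0.619 of 0 in absolute value. H2-Ob, whose promoter window holds the X and Y pair, had r = 0.27, and H2-DMa, at 0.60, is without the pair. With so few reads, a weak r of Ciita, of H2-Ob or of a dendritic cell member is no finding. H2-DMb1 and H2-DMa also had few reads, 7 to 37 and 12 to 49 per liver beside 12 to 30 for Ciita. What sets their r apart from that of Ciita was not tested.

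Outside the 10 members, the genes most like the class II mean over the 12 livers were Ppp1r3g (r = 0.95), which encodes a glycogen-targeting subunit of protein phosphatase 1, Cxcl9 (0.92), Mrgprb11-ps (0.91), Adam22 (0.91) and Cyp3a11 (0.89). Cxcl9, a chemokine that interferon gamma induces, was at 9.59 ± 4.82 normalized CPM in WT and 10.0 ± 1.86 in LKO livers (SD, n = 6 each). Its log2 fold change was 0.06 ± 0.27 (SE; adjusted p = 0.961). Further down the same order stood Ubd (r = 0.86), Gbp2b (0.85), Serpina3g (0.85) and Gbp4 (0.85), which were singled out after their values were seen. Adgrl3 (0.88), Kif21b (0.87) and Gm23205 (0.86) ranked above these, and Pgm5 (0.86), Cemip2 (0.85) and Stau1 (0.85) among them. Among the genes of the 11-member interferon gamma list, r ran from -0.18 to 0.92 with a median of 0.39. Irf1, a transcription factor induced by interferon, and Nlrc5, the class I counterpart of Ciita, were at -0.04 and -0.10. Median r was higher for the sinusoidal endothelial (0.63), leukocyte (0.48) and T and NK cell markers (0.46). For the other cell marker lists it ran from -0.14 (stellate cells) to 0.38 (Kupffer cells).

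**Figure D3:**
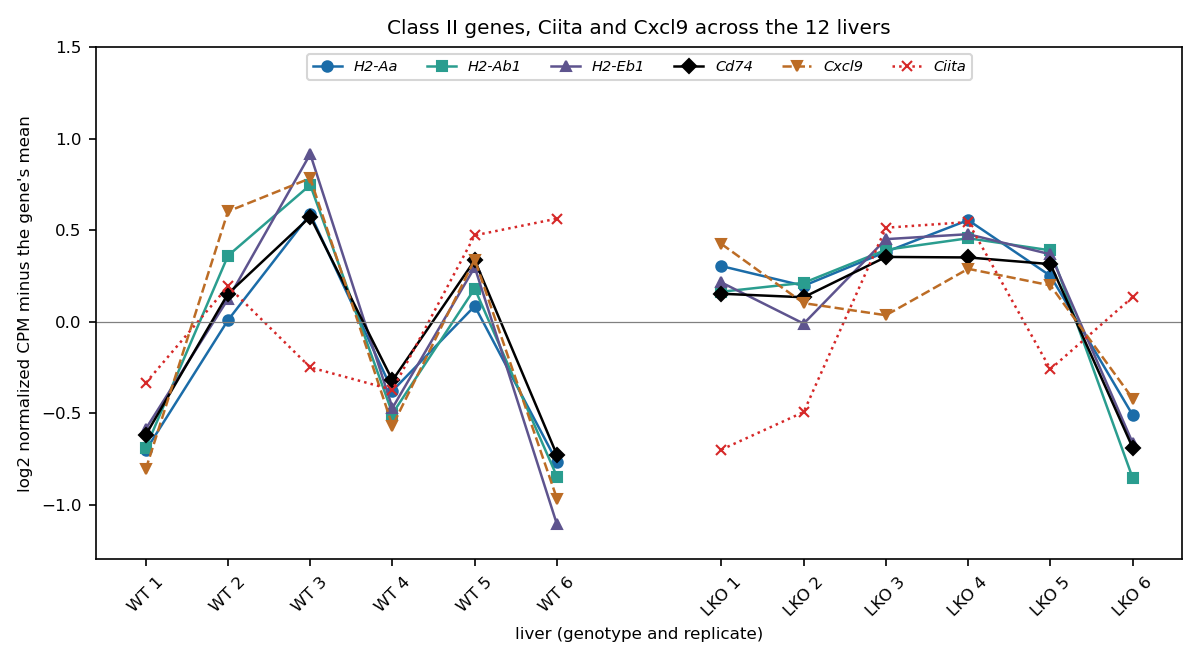
Log2 normalized CPM of H2-Aa, H2-Ab1, H2-Eb1, Cd74, Cxcl9 and Ciita minus the mean of each gene over all livers (y axis), in the 6 WT and 6 LKO livers (x axis, joined within a genotype only to guide the eye, since replicates have no order). The class II genes and Cxcl9 are low in WT replicates 1, 4 and 6 and in LKO replicate 6, while Ciita is high in WT replicate 6.

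Within each genotype the class II mean was set against 6 measures, 12 relations in all, with exact two-sided permutation tests over 6 livers: Ciita, the interferon gamma list, and the Kupffer cell, B cell, cDC1 and leukocyte markers. Against Ciita, Pearson's r was -0.09 in WT (exact permutation p = 0.888; Spearman's rho -0.09, p = 0.919) and 0.09 in LKO livers (exact permutation p = 0.910; rho 0.60, p = 0.242). Against the interferon gamma list, r was 0.73 in WT (exact permutation p = 0.104; rho 0.83, p = 0.0583) and 0.88 in LKO (exact permutation p = 0.0208; rho 0.71, p = 0.136). Against leukocyte markers, r was 0.67 in WT (exact permutation p = 0.163; rho 0.49, p = 0.356) and 0.68 in LKO (exact permutation p = 0.161; rho 0.14, p = 0.803). For Kupffer cell markers r was 0.10 in WT (exact permutation p = 0.843; rho -0.09, p = 0.919) and 0.68 in LKO (exact permutation p = 0.201; rho 0.31, p = 0.564). For B cell markers r was 0.45 in WT (exact permutation p = 0.369; rho 0.54, p = 0.297) and 0.24 in LKO (exact permutation p = 0.518; rho 0.83, p = 0.0583). For cDC1 markers r was -0.04 in WT (exact permutation p = 0.924; rho 0.09, p = 0.919) and -0.38 in LKO (exact permutation p = 0.499; rho -0.60, p = 0.242). No relation passed after adjustment over the 12, the lowest adjusted p being 0.250 for r and 0.350 for rho. Without the 2 livers of a genotype farthest from the median of the interferon gamma list, r was 0.97 in WT and -0.19 in LKO. With 2 livers left out in this way for each other measure, r against Ciita was 0.40 in WT and -0.05 in LKO. Against leukocyte markers it was 0.48 and -0.15, against Kupffer cell markers -0.64 and -0.87, against B cell markers 0.13 and 0.57, and against cDC1 markers 0.47 and -0.86. So few livers over a narrowed range do not decide what a relation rests on. The sinusoidal endothelial markers were not among the 6 measures.

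The other genes of the pathway were given by lists, and edgeR called no gene of any list. Over the 108 tested genes outside the members, 31 had an unadjusted p under 0.05, of which 30 were higher in LKO, where 6.33% of all genes were marked in that direction. The edgeR test and limma voom called 0 of them at the adjusted threshold, and DESeq2 called 8. Among the other class II genes of the locus, 2 of 5 were tested and had log2 fold changes of 0.25 ± 0.27 (H2-Ob, a chain of H2-O, which restrains H2-M) and 1.12 ± 0.53 (H2-DMb2; SE, unadjusted p = 0.0498, adjusted p = 0.427), the latter on 1 to 12 reads per liver. H2-Oa, H2-Eb2 and H2-Ea-ps had at most 3 reads in any liver.

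The genes that process antigen, cut the invariant chain or turn class II over had 7 of 8 log2 fold changes of LKO against WT above 0, a median of 0.21 and 5 of 8 at an unadjusted p under 0.05. None was called by edgeR or voom, and DESeq2 called 3. Ctss, the cathepsin that cuts the invariant chain in antigen-presenting cells, was at 15.4 ± 2.01 normalized CPM in WT and 21.7 ± 4.63 in LKO livers (SD, n = 6 each). Its log2 fold change was 0.50 ± 0.13 (SE; adjusted p = 0.126), with all 6 LKO livers above the WT mean. The abundant lysosomal proteases Ctsl and Ctsb had log2 fold changes of 0.19 ± 0.06 (adjusted p = 0.215) and 0.23 ± 0.07 (adjusted p = 0.168), and they are expressed by hepatocytes as well. Cd83, which protects class II from ubiquitination, had 0.99 ± 0.35 (adjusted p = 0.270). The ligases that ubiquitinate class II, March1 and March8, relatives of the deleted gene, had 0.08 ± 0.19 and -0.05 ± 0.06 (adjusted p = 0.921 and 0.816).

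The factors that bind class II promoters showed no shared direction: 3 of 7 log2 fold changes were above 0, with a median of -0.06 and 0 unadjusted p under 0.05. Nfyb, a subunit of the Y-box factor NF-Y, was at 30.1 ± 3.37 normalized CPM in WT and 34.7 ± 5.59 in LKO, and Creb1, which binds next to the X box, at 23.1 ± 2.36 and 21.4 ± 2.27 (SD, n = 6 each). The interferon gamma list was as even, with 6 of 11 above 0, a median log2 fold change of 0.01 and 0 unadjusted p under 0.05. Its most abundant genes, Nlrc5 and Irf1, had log2 fold changes of 0.01 ± 0.09 and -0.04 ± 0.14 (SE).

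The dendritic cell lists were tested on few reads. All 8 cDC1 markers were above 0, with a median log2 fold change of 0.17 and 1 unadjusted p under 0.05. That was Clec9a, a cDC1 receptor for dead cells, at 3.10 ± 0.529 normalized CPM in WT and 3.89 ± 0.272 in LKO livers (SD, n = 6 each; log2 fold change 0.33 ± 0.12, adjusted p = 0.312). The most abundant genes of the list, Cadm1 at 0.13 ± 0.08 and Tlr3 at 0.05 ± 0.13, are also expressed outside dendritic cells. Summed, the cDC1 markers ran from 40.7 to 53.6 normalized CPM in WT and from 49.3 to 51.4 in LKO. For type 2 conventional dendritic cells, 3 of 6 markers were tested, with a median of 0.54 and 0 unadjusted p under 0.05: Sirpa, which macrophages share, had 0.31 ± 0.15, and Clec10a 0.54 ± 0.53 on 0 to 8 reads. Of the defining markers of that subset, Cd209a and Mgl2 had at most 5 reads in a liver and Clec4a4 at most 3.

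For plasmacytoid dendritic cells 5 of 6 markers were tested, 3 of them above 0, with a median log2 fold change of 0.12 and 0 unadjusted p under 0.05. Bst2 and Tcf4, abundant in other liver cells too, had 0.12 ± 0.06 and 0.13 ± 0.07 (SE). Of 10 maturation genes 6 were tested and 5 were above 0, with a median of 0.42. Among those not tested, Ccr7 had 0 to 3 reads in WT and 2 to 8 in LKO livers. Ccl22 had 27 reads in LKO replicate 1 and at most 4 in any other liver, and Ccl17 and Il12b had at most 3 in any liver. Cd86, a costimulatory ligand, was at 1.22 ± 0.324 normalized CPM in WT and 1.87 ± 0.494 in LKO (SD, n = 6 each; log2 fold change 0.61 ± 0.22, adjusted p = 0.273), and Fscn1, an actin-bundling protein of mature dendritic cells, had 0.34 ± 0.28. In the list for FLT3 signalling and dendritic cell growth, 4 of 6 were above 0, with a median of 0.13 and 0 unadjusted p under 0.05. Flt3l, the ligand of Flt3, was at 4.47 ± 0.707 normalized CPM in WT and 5.03 ± 0.871 in LKO (log2 fold change 0.16 ± 0.14), Zbtb46, a transcription factor of conventional dendritic cells, had 0.15 ± 0.12, and Id2, which hepatocytes also express, -0.12 ± 0.27.

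**Figure D4:**
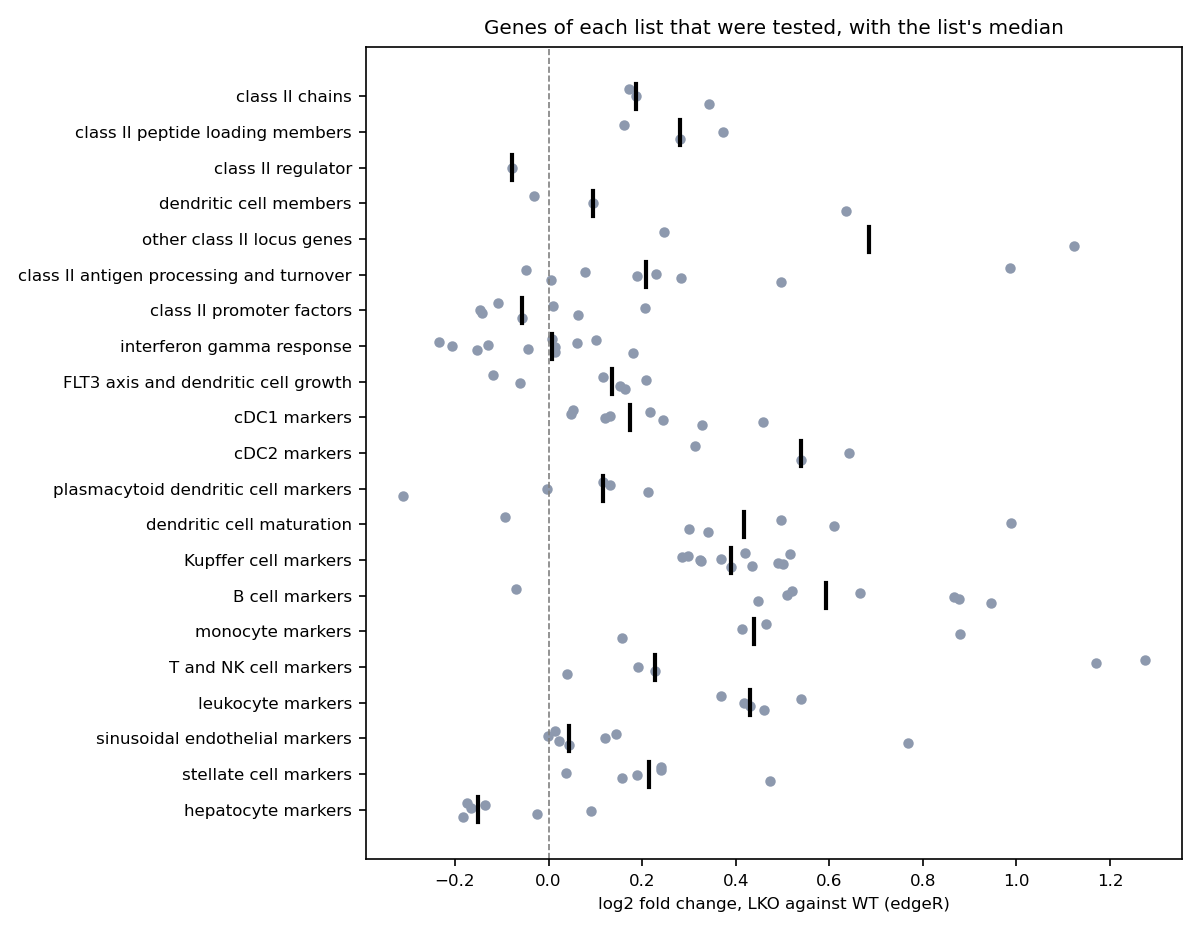
Log2 fold change of LKO against WT (x axis, edgeR) for each tested gene (points) of the member groups and of each list (y axis), with the median of the list as a black bar and 0 dashed. The Kupffer cell markers lie between 0.29 and 0.52, the interferon gamma list is centred at 0.01, and edgeR called no point.

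Markers of other cells that carry class II were mostly above 0 as well, without a call by edgeR. For Kupffer cells, the resident macrophages of the liver, 11 of 11 markers were above 0, with a median log2 fold change of 0.39, 10 unadjusted p under 0.05, 0 calls by edgeR or voom and 3 by DESeq2. Their summed level ran from 141.7 to 193.8 normalized CPM in WT and from 172.5 to 298.7 in LKO, and 5 of 6 LKO livers exceeded every WT liver. Clec4f, restricted to Kupffer cells, was at 45.03 ± 4.32 normalized CPM in WT and 59.1 ± 9.22 in LKO (SD, n = 6 each; log2 fold change 0.39 ± 0.10, adjusted p = 0.114), and Cd5l had 0.49 ± 0.14 (adjusted p = 0.142). None of the 11 was at 0. LKO replicate 6, the low class II liver, was also the lowest LKO liver in these markers, and the low class II liver WT replicate 1 was the lowest WT liver in them, at 141.7. The other low class II livers, WT replicates 4 and 6, had 171.2 and 181.4 beside a WT median of 176.1.

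For B cells, 7 of 8 markers were above 0, with a median log2 fold change of 0.59 and 4 unadjusted p under 0.05. Their summed level was 2.83 to 4.87 normalized CPM in WT and 2.84 to 6.38 in LKO, with Blnk, which macrophages also express, at -0.07 ± 0.27 and Cd22 at 0.66 ± 0.30. The leukocyte markers were above 0 in 5 of 5, with a median of 0.43, 3 unadjusted p under 0.05 and 1 call by DESeq2, from 19.4 to 24.5 normalized CPM in WT and 20.1 to 38.7 in LKO. Ptprc, which encodes CD45, had 0.46 ± 0.12 (adjusted p = 0.112) and Laptm5 0.43 ± 0.16 (adjusted p = 0.281). Monocyte markers were above 0 in 4 of 4 tested of 5, summed to 2.88 to 6.12 normalized CPM in WT and 4.92 to 11.7 in LKO, with Plac8 at 0.46 ± 0.22 and Ccr2, the receptor that brings monocytes from the blood, at 0.88 ± 0.27 (adjusted p = 0.189). LKO replicate 1, the highest liver in Itgax, was the highest in monocyte and leukocyte markers too. T and NK cell markers, 5 of 8 tested, were all above 0 with 2 unadjusted p under 0.05, and Cd3e and Cd3g had 1 to 10 reads per liver.

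The values of structural cells followed. The sinusoidal endothelial markers had a median log2 fold change of 0.04 with 1 of 7 at an unadjusted p under 0.05 and 1 call by DESeq2. Lyve1, a hyaluronan receptor of sinusoidal and lymphatic endothelium, had the largest value of the list, at 0.77 ± 0.19 (adjusted p = 0.103). The 2 most abundant genes were Stab2 at 0.04 ± 0.06 and Kdr at -0.00 ± 0.09, and the summed level of the list was 157.4 to 208.7 normalized CPM in WT and 169.3 to 207.8 in LKO. The stellate cell markers had a median of 0.22, also with 1 of 6 at an unadjusted p under 0.05, Dcn at 0.24 ± 0.11 and Reln at 0.16 ± 0.11. Their summed level was 138.0 to 214.1 normalized CPM in WT and 167.3 to 234.1 in LKO. The hepatocyte markers had a median of -0.15, with 5 of 6 below 0, Alb at -0.18 ± 0.08 (adjusted p = 0.413) and Apoa1 at -0.02 ± 0.08. All 6 LKO livers were below the WT mean of their summed level. The part of these cell markers in the values of the members was not tested.

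The summed class II level was also set against the summed markers of each cell type. The ratio of summed class II to Kupffer cell markers was 0.433 ± 0.165 in WT and 0.379 ± 0.0731 in LKO (SD, n = 6 each), and to leukocyte markers 3.36 ± 1.10 and 2.92 ± 0.585. The ratio to cDC1 markers was 1.67 ± 0.679 in WT and 1.72 ± 0.404 in LKO, that to B cell markers 21.1 ± 7.99 and 19.1 ± 7.18, and that to sinusoidal endothelial markers 0.418 ± 0.132 and 0.463 ± 0.105. These ratios have no test, and the groups overlapped in all 5. Of the cDC1 sum, on average 45.7 normalized CPM in WT, Cadm1 alone held 22.8, and it is also expressed outside dendritic cells. Blnk, which macrophages express too, held 1.61 of the B cell sum of 3.61 normalized CPM in WT. The spread between WT livers, 2.74-fold from lowest to highest in summed class II, was 2.94-fold in the ratio to Kupffer cell markers, 3.17-fold to cDC1 markers, 2.97-fold to B cell markers, 2.51-fold to leukocyte markers and 2.07-fold to sinusoidal endothelial markers. In LKO livers it was 2.14-fold in summed class II and 1.66-fold, 2.16-fold, 3.30-fold, 1.67-fold and 2.11-fold in these ratios in the same order.

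**Figure D5:**
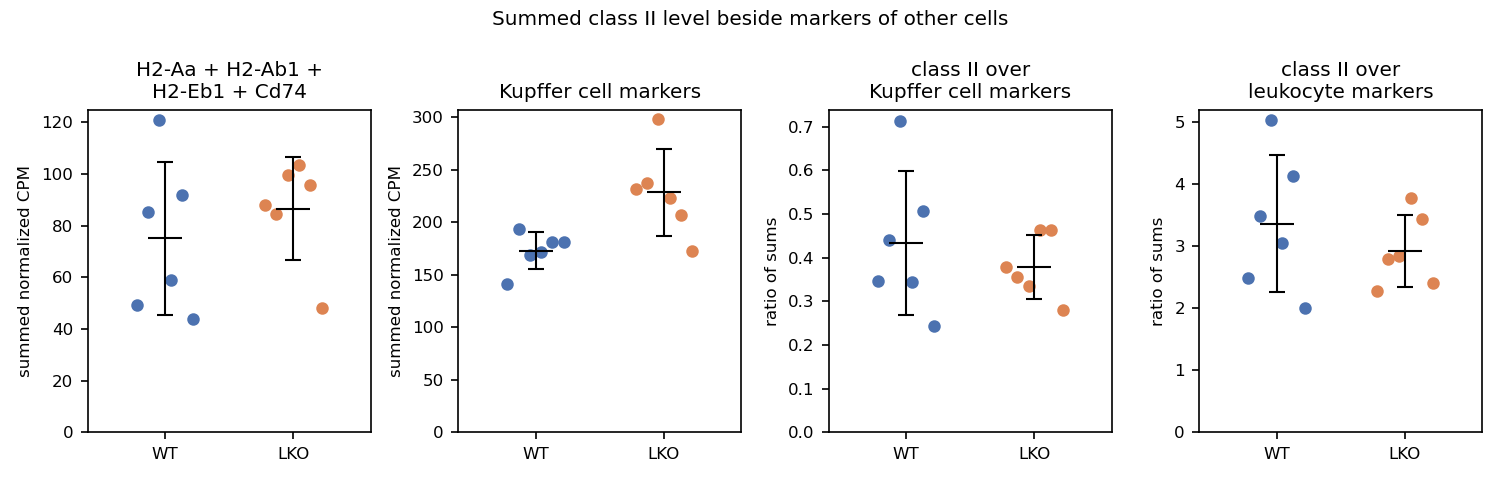
Summed normalized CPM of H2-Aa, H2-Ab1, H2-Eb1 and Cd74 and of 11 Kupffer cell markers, and the ratio of the class II sum to the Kupffer cell and leukocyte marker sums (y axes, linear from 0), in 6 WT and 6 LKO livers (points), with mean and SD as bars. Kupffer cell markers are above every WT liver in 5 LKO livers, whereas the ratios of 0.433 in WT and 0.379 in LKO overlap widely.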

How the data were processed

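The authors made mRNA libraries from liver RNA, used Trimmomatic 0.36 for trimming and HISAT2 2.1.0 for alignment to GRCm38.p6, and took gene counts with HTSeq 0.6.1. They deposited raw counts per Ensembl gene, without normalization. The strand setting and overlap mode of the counting are not given in the sources used here. Symbols and coordinates came from GENCODE M21, which held 54165 of 54232 identifiers.

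A gene entered the test when 6 or more livers had over 2 reads, the filter of the study's methods. Libraries were scaled with TMM factors, and genotype was tested with no other term by edgeR 4.0.16 (quasi-likelihood, in R 4.3.3). P-values were adjusted after Benjamini and Hochberg over every gene that entered. Fold changes and their SE are on the log2 scale, and log2 CPM used a prior count of 0.5. Each library is a separate mouse. The depth of 14860414 to 22111926 counts limits genes with few reads, and counting errors given are Poisson errors only. Shared stretches were counted as 50-base words of the annotated transcripts.

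The alternatives were other scalings and filters, limma 3.58.1 (voom, the test of the study's methods), DESeq2 1.42.0, a block for replicate number, and leaving out each liver. The members and lists were chosen with earlier results of these data known. The genes named were the members, any called gene of a list, the 2 most abundant genes of each list, and the 5 genes most correlated with the class II mean. Ctss, Cd83, March1, March8, Clec9a, Lyve1, Flt3l, Cd209a, Mgl2, Clec4a4, Ubd, Gbp2b, Serpina3g and Gbp4 are exceptions, picked once their values were known. So are Adgrl3, Kif21b, Gm23205, Pgm5, Cemip2, Stau1, Ccr7, Ccl22, Ccl17 and Il12b.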

Additional observations from a re-analysis of the deposited data

Results flagged for a closer look

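Dixon's ratio, the gap of an extreme liver to its nearest neighbour divided by the range of its group, was computed in 22 groups of 6 livers. It passed the critical value of 0.625 in 5 of them, where chance gives about 1.1, since it marks about 1 group in 20. LKO replicate 6 was the lowest LKO liver in 3 of them: H2-Ab1 (ratio 0.693), Cd74 (0.725) and the summed class II level (0.660). These 3 are not independent, since the sum holds both genes and the 2 genes varied together (r = 0.98). Without it the log2 ratio of the summed class II level was 0.33 instead of 0.21, and no member was called. WT replicate 1 was the lowest WT liver in H2-DMa (0.680), at 0.829 normalized CPM on 12 reads. LKO replicate 5 was the highest LKO liver in Flt3 (0.678), at 0.473 normalized CPM on 11 reads.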

How the results depend on the processing

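Of 187 alternative values of the members, 175 kept their direction, 12 changed sign and 0 were called, the lowest adjusted p being 0.250 for H2-Aa without WT replicate 3. All 12 sign changes came from leaving out a liver: Ciita ran from -0.204 to 0.0373, Flt3 from -0.173 to 0.628 and Xcr1 from -0.143 to 0.0618. H2-Aa ran from 0.24 to 0.53, H2-Ab1 from 0.07 to 0.40, H2-Eb1 from 0.02 to 0.44, H2-DMa from 0.17 to 0.40, H2-DMb1 from 0.22 to 0.55, Cd74 from 0.05 to 0.31 and Itgax from 0.38 to 0.80. The count of called genes was 75, and it was 114 without a filter, 351 (181 higher in LKO, against 48 of 75) with DESeq2, and 38 (without WT replicate 5) to 132 (without WT replicate 3) when a liver was left out. Alternatives were added after seeing the data, list medians and the summed class II level without each liver. The median of the dendritic cell members was then -0.0240 to 0.485 (highest without WT replicate 6), that of the hepatocyte markers -0.186 to -0.0547 (highest without WT replicate 3), and the log2 ratio of summed class II 0.09 to 0.39. The cause of these shifts was not tested. Same-numbered livers had residual correlations of -0.06 to 0.14. Livers of different numbers were not compared, so these values do not decide whether the numbers mark pairs. With the replicate block 97 genes were called and 0 members. A filter of at least 10 counts left no value for H2-DMb1, Itgax, Flt3 and Xcr1, whose low reads limit what could be detected.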
